A study of Mus musculus with 6 samples.

Results

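Closely spaced binding sites of a tethered Nrf1-MafG heterodimer were examined in the longest summit list of the series, that of the second MG132 library. A summit is the single base of highest enrichment within a called peak. A summit was counted as closely spaced when another summit of the same list lay within 10 kb of it, on chromosomes 1 to 19. This rule took 793 of the 6403 autosomal summits of the list, which holds 6576 summits in all, and left 5610 single summits. The 4 lists of the series together hold 11322 summits. The members were selected on the summit positions of that list, so their number, spacing and scores are descriptions without a test. Only the other 3 lists were left out of the selection, and the labels do not say that their libraries are independent of it.

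Chromatin was precipitated with an antibody against MafG from mouse embryonic fibroblasts of the genotype MafF-/-::MafG-/-::MafK-/-:T-N1G, in which T-N1G is the tethered heterodimer and all endogenous small Maf genes named there are deleted. Vehicle cells (2 libraries) and cells given 1.0 µM MG132, an inhibitor of the proteasome (2 libraries), were treated for 4 h, and all groups carry the deletions and the heterodimer. The 2 input libraries were not analysed here. The promoter that drives T-N1G, its level and whether the cells are 1 clone are not stated in the labels used here, and nothing in the labels says that the libraries came from separate cultures. The lists hold 3894 and 6576 summits for MG132 replicates 1 and 2, and 24 and 828 for vehicle replicates 1 and 2. Read depth is unknown, so a missing summit means only that none was called.

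Nrf1, of the cap'n'collar family of transcription factors, is degraded in unstressed cells and accumulates when the proteasome is blocked, and it raises the transcription of proteasome subunit genes. It binds DNA as a heterodimer with a small Maf protein such as MafG, at elements related to the antioxidant response element. The regulatory regions of some target genes hold several such elements spread over kilobases, of which the upstream enhancers of heme oxygenase 1 are a textbook example. A closely spaced pair of summits in a list can be a pair of separate binding sites of this kind or a pair of calls on one enriched stretch. From these lists they cannot be told apart. No sequence or gene annotation of the files' build, mm9, was used here, so the sites are named by position and their genes, exons and motifs are not stated.

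The closely spaced summits formed 375 groups when neighbours no more than 10 kb apart were joined. There were 341 pairs, 26 groups of 3, 7 groups of 4 and 1 group of 5. Pairs held 682 of the summits and larger groups held 111. The share of closely spaced summits was 12.4% of the list (exact Clopper-Pearson 95% interval 11.6 to 13.2, counting error only). The same rule gave 228 of 3787 autosomal summits in MG132 replicate 1 (6.02%, 5.28 to 6.83), 26 of 817 in vehicle replicate 2 (3.18%, 2.09 to 4.63) and 4 of 24 in vehicle replicate 1 (16.7%, 4.74 to 37.4). A longer list is denser along the chromosome, so these shares are not comparable between lists as they stand. With MG132 replicate 2 cut to its 3894 top summits, as many as replicate 1 holds, its share was 7.94% (302 of 3804 autosomal summits).

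Neighbouring summits within the limit lay at a median distance of 4278 bp (quartiles 1850 and 6928 bp, 418 neighbouring pairs). No neighbours were closer than 318 bp. Short distances were the more frequent ones. There were 56.5 neighbouring pairs per kb of distance up to 2 kb, 38.1 per kb from 2 to 10 kb, 32.6 per kb from 10 to 15 kb and 29.8 per kb from 15 to 20 kb. The counts thus fell off gradually with no step at the 10 kb limit. Just inside it, 65 summits had their nearest neighbour at 9040 to 9900 bp, with a median score of 12.6. Of these, 29 were found in MG132 replicate 1 and 2 in vehicle replicate 2. Just outside it, 65 summits had theirs at 10007 to 10897 bp, with a median score of 11.7. Of these, 31 were found in MG132 replicate 1 and 8 in vehicle replicate 2.

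**Figure D1:**
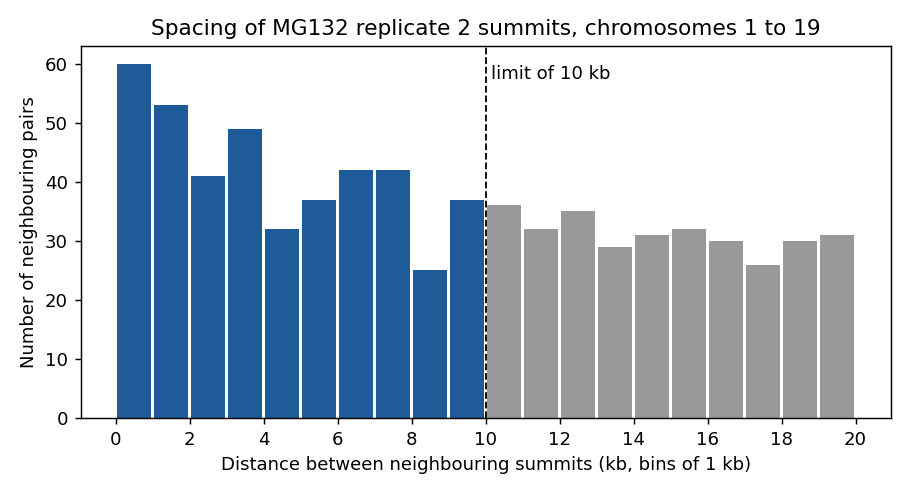
Number of neighbouring summit pairs of MG132 replicate 2 on chromosomes 1 to 19 (y axis) by the distance between them (x axis, kb, bins of 1 kb). Blue bars lie within the 10 kb limit and grey bars beyond it. The first bin holds 60 pairs and the second 53, against 37 in the last bin inside the limit and 36 in the first outside.

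All autosomes held closely spaced summits. The share was highest on chromosome 8, with 61 of 372 summits (16.4%, 95% interval 12.8 to 20.6), followed by chromosome 11 with 66 of 426 (15.5%, 12.2 to 19.3) and chromosome 1 with 69 of 462 (14.9%, 11.8 to 18.5). It was lowest on chromosome 18, with 12 of 185 (6.49%, 3.40 to 11.1), and chromosome 16, with 20 of 247 (8.10%, 5.02 to 12.2). The intervals of most chromosomes overlapped, and no test of the split was made.

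Closely spaced and single summits had much the same scores. The score, taken here as the authors' −log10 value of p or q for each peak, was compared only within a list. The median was 11.7 among closely spaced summits (quartiles 7.10 and 25.4) and 11.98 among single ones (7.10 and 22.1). The list was divided into 4 score bands of near equal size, with tied scores kept together, and numbered from the lowest. Band 4, with scores from 22.5 upwards, held 28.0% of the closely spaced and 24.5% of the single summits. Of the 100 best summits of the list, 9 were closely spaced and 91 were single.

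Partners within a pair were about as unequal as neighbours farther apart. The stronger partners had a median score of 21.3 (quartiles 11.7 and 40.1) and the weaker ones 7.97 (5.15 and 12.3). A gap of some size follows from sorting the partners by score. The partners differed by a median of 30.5 percentiles of the list, by more than 50 percentiles in 88 of 341 pairs (25.8%) and by fewer than 10 in 76 (22.3%). Neighbouring summits 10 to 50 kb apart differed by a median of 26.7 percentiles, with 24.7% of them over 50 and 20.4% under 10. Both partners were in score band 4 in 28 pairs, only the stronger was in 130, and 41 pairs joined a summit of band 4 to one of band 1. Across the 341 pairs, the score of the partner with the lower coordinate had a Spearman rho of 0.02 with that of the other. Those neighbours farther apart gave 0.04 over 1018 neighbouring pairs. These values describe sites of 1 library.

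The pair with the highest scores of both its stronger and its weaker partner lay on chromosome 8. Its summits, at 77607907 and 77613647, are 5740 bp apart. They scored 175 and 339 in MG132 replicate 2 (ranks 45 and 7 of 6576) and 152 and 270 in MG132 replicate 1 (ranks 25 and 4 of 3894). In vehicle replicate 2 they scored 130 and 170, and in vehicle replicate 1 24.5 and 34.8, ranked 2 and 1 in both lists. The second summit was the stronger in all 4 lists, and this was the only group of which every member was found in all of them.

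The next pairs by their stronger member each had a far weaker partner. On chromosome 3, the summit at 107626369 scored 296 and was found in all 4 lists, while its partner 4707 bp away at 107631076 scored 5.82 and was in no other list. On chromosome 2, the summit at 8550327 scored 255 and recurred in MG132 replicate 1 and vehicle replicate 2, whereas its partner at 8557806 scored 3.84 and was in no other list. The pair on chromosome 2 at 20505637 and 20511063 followed the same pattern, with scores of 152 and 7.97. On chromosome 7, both partners, at 28168386 and 28174469, were found in MG132 replicate 1, with scores of 157 and 13.6 in replicate 2 and 50.1 and 12.2 in replicate 1. Only the stronger of these was called in vehicle replicate 2.

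A few pairs were strong on both sides. On chromosome 16, summits at 14351058 and 14352892, 1834 bp apart, scored 121 and 90.4, and both were found in MG132 replicate 1 (54.1 and 63.9) and in vehicle replicate 2 (48.4 and 37.6). On chromosome 17, summits at 89850288 and 89852978 scored 65.9 and 67.3, and likewise recurred as a pair in both lists. On chromosome 9, summits at 44768967 and 44774989 scored 45.3 and 46.3 and both recurred in MG132 replicate 1, but vehicle replicate 2 had only the second. By contrast, the summits on chromosome 10 at 127351865 and 127352820, 955 bp apart, scored 57.4 and 68.7, yet MG132 replicate 1 and vehicle replicate 2 each had a summit at the second alone.

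**Figure D2:**
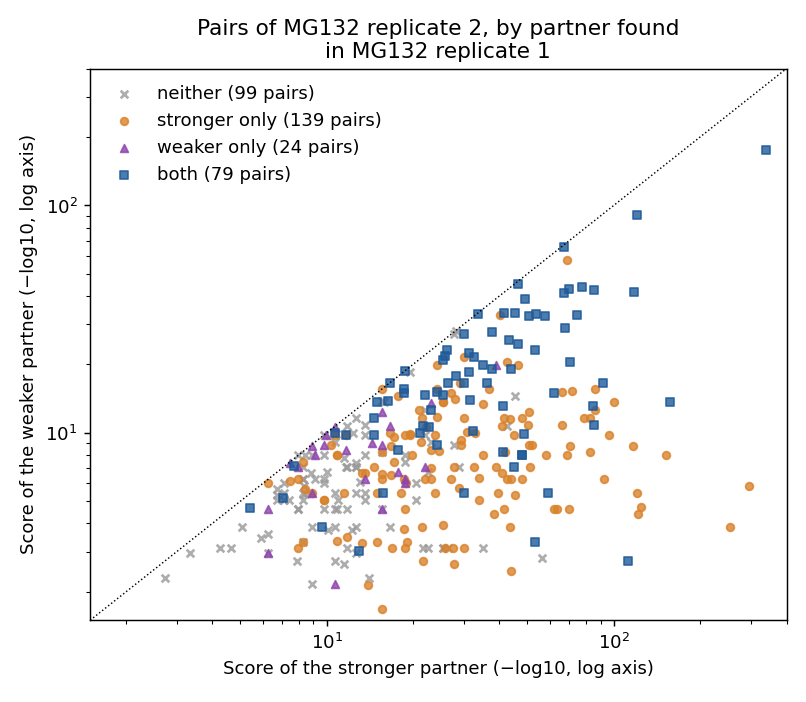
Score of the weaker partner (y axis) against that of the stronger partner (x axis) for the 341 pairs of MG132 replicate 2. Both are taken as −log10 values and shown on log axes, with the line of equal scores dotted. Symbols show which partner was found in MG132 replicate 1: both in 79 pairs, the stronger only in 139, the weaker only in 24 and neither in 99. The pair at the upper right is that on chromosome 8, and the points at the lower right are strong summits with a weak partner.

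The next question was whether the partners recurred in the other MG132 library. Of the 793 closely spaced summits, 364 (45.9%, 95% interval 42.4 to 49.4) were found in MG132 replicate 1, meaning that this list had a summit no more than 200 bp away. Among single summits it was 2929 of 5610 (52.2%, 50.9 to 53.5), and over all autosomal summits of the list 51.4%. The difference was -6.31 percentage points (95% Newcombe interval -9.99 to -2.59). These intervals cover counting error only and are too narrow, since summits of 1 group are not independent measurements, and no test over summits was made.

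The closely spaced share was the lower one in each score band. In band 1, 24 of 191 closely spaced summits (12.6%) and 241 of 1320 single ones (18.3%) were found, against 17.5% of all. In band 2 it was 52 of 211 (24.6%) and 506 of 1479 (34.2%), against 33.0% of all. Band 3 gave 90 of 169 (53.3%) and 889 of 1439 (61.8%), against 60.9% of all. Band 4 gave 198 of 222 (89.2%) and 1293 of 1372 (94.2%), against 93.5% of all. The interval of the difference was -10.22 to 0.11 in band 1 and lay below 0 in the other 3 bands. These intervals too cover counting error only and are too narrow. They come from 1 library looked up in 1 other and are no test. Weighted by the closely spaced summits in each band, the difference was -7.15 points. With the list divided into 10 score bands in place of 4, the closely spaced share was the lower in 10 of 10 bands and the weighted difference was -7.57 points.

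**Figure D3:**
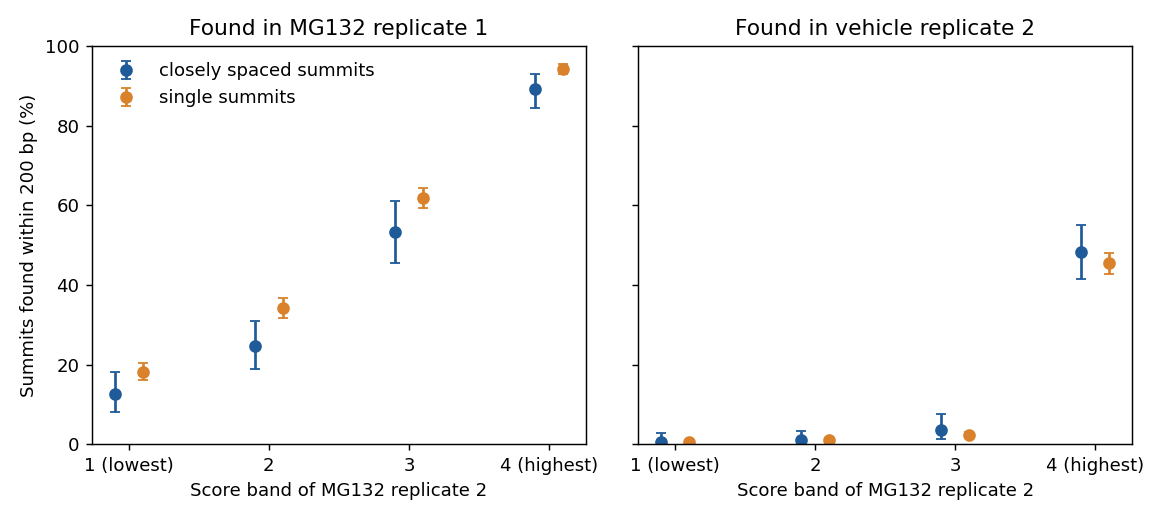
Share of MG132 replicate 2 summits found within 200 bp in MG132 replicate 1 (left) and in vehicle replicate 2 (right), in percent (y axes), by score band from the lowest to the highest (x axes). Points are shares of closely spaced (blue) and single (orange) summits and bars are exact 95% intervals. On the left the blue points lie below the orange ones in all 4 bands, from 12.6% against 18.3% to 89.2% against 94.2%, and on the right the intervals overlap throughout.

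The same rule applied to the other MG132 list did not give this gap. Of the 228 closely spaced summits of MG132 replicate 1, 204 (89.5%, 84.7 to 93.1) were found in MG132 replicate 2, against 3089 of its 3559 single summits (86.8%, 85.6 to 87.9) and 87.0% of all its autosomal summits. The difference was 2.68 points (-2.10 to 6.22). A lower share among closely spaced summits was thus seen with the longer MG132 list and not with the shorter one, and the difference between both results was not tested.

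Recurrence varied with the distance to the nearest summit. It was 6 of 28 summits (21.4%) where the neighbour was within 500 bp, 32 of 88 (36.4%) from 500 to 1000 bp, 51 of 103 (49.5%) from 1000 to 2000 bp, 105 of 235 (44.7%) from 2000 to 5000 bp and 170 of 339 (50.1%) from 5000 to 10000 bp. Single summits gave 259 of 535 (48.4%) with the nearest summit at 10 to 20 kb, 582 of 1145 (50.8%) at 20 to 50 kb and 2088 of 3930 (53.1%) beyond 50 kb. Summits with a neighbour at 5 to 10 kb were thus not below single ones with a neighbour at 10 to 20 kb. The closest class also had the lowest median score, 8.53, against 11.7 for the last. Without the 116 summits that have a neighbour within 1 kb, closely spaced summits gave 326 of 677 (48.2%), and the weighted difference within the 4 score bands was -5.48 points.

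Taken by pairs, MG132 replicate 1 mostly held 1 partner or none, where 51.4% of all autosomal summits of the list were found. How often 2 unrelated summits would both be found was not computed, so the counts show no trait of pairs. Both partners were found in 79 of 341 pairs (23.2%, 95% interval 18.8 to 28.0), the stronger alone in 139 (40.8%), the weaker alone in 24 (7.04%) and neither in 99 (29.0%). Thus 218 stronger partners (63.9%) and 103 weaker partners (30.2%) were found. Within score bands the rates of stronger and weaker partners lay closer together. In band 1, 3 of 16 stronger (18.8%) and 18 of 147 weaker partners (12.2%) were found. In band 2, 21 of 76 stronger (27.6%) and 29 of 108 weaker partners (26.9%) were found, and in band 3, 51 of 91 (56.0%) and 32 of 58 (55.2%). In band 4 it was 143 of 158 (90.5%) and 24 of 28 (85.7%), so the stronger partners had the higher share in each band, with few partners of one kind at both ends. Weaker partners of like score were also split by whether their stronger partner was found. In band 1, 9 of 73 weaker partners were found where the stronger was found and 9 of 74 where it was not (12.3% and 12.2%), and in band 2 it was 17 of 69 and 12 of 39 (24.6% and 30.8%). In band 3 it was 29 of 50 and 3 of 8 (58.0% and 37.5%), and in band 4 it was 24 of 26 and 0 of 2, with too few weaker partners beside a missing stronger one to compare.

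Whole pairs were few among those no more than 1 kb apart. Both partners were found in 4 of 45 such pairs (8.89%), against 79 of all 341 pairs (23.2%). From 1 to 2 kb it was 10 of 41 pairs (24.4%) and from 2 to 5 kb 20 of 103 (19.4%). From 5 to 10 kb it was 45 of 152 (29.6%). The median score of the weaker partner was 7.03 in the first class and 7.97 in each of the others. That of the stronger partner was 19.6 in the first class and 24.3, 18.8 and 22.1 in the others. These shares were not split by score band. The 3 closest pairs, 318, 319 and 326 bp apart, scored between 2.31 and 9.76 and were in no other list. They lie on chromosomes 7, 11 and 17, with first summits at 63326954, 4301448 and 65959865. The 3 widest were 9875 to 9900 bp apart. Of these, the pair on chromosome 12 at 70629180 and 70639080 had its stronger partner alone in MG132 replicate 1.

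Where a pair was found in both MG132 lists, its geometry was nearly the same. Over the 79 such pairs the spacing differed between lists by a median of 18 bp and by 122 bp at most, which the match distance of 200 bp bounds. The order of the partners was kept in 52 of 77 pairs without tied scores (67.5%, 95% interval 55.9 to 77.8). It was kept in 24 of 28 pairs whose partners differed by more than 20 percentiles in MG132 replicate 2 (85.7%) and in 28 of 49 that differed by 20 or less (57.1%). The percentile differences in both lists had a Spearman rho of 0.41 over the 79 pairs, as a description of these libraries.

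The strongest pair with a changed order was that on chromosome 16 at 14351058 and 14352892, where the first summit led in MG132 replicate 2 and vehicle replicate 2 and the second in MG132 replicate 1. On chromosome 1, summits at 90925003 and 90930824 scored 67.3 and 41.3 in MG132 replicate 2 but 16.2 and 30.9 in MG132 replicate 1, and 10.5 and 6.08 in vehicle replicate 2. On chromosome 4, summits at 11359018 and 11367220 scored 53.2 and 23.2 in MG132 replicate 2 and 21.8 and 32.3 in MG132 replicate 1. The pair on chromosome 4 at 33418325 and 33425121 also changed order and was in no vehicle list. So did the pair on chromosome 17 at 89850288 and 89852978, with scores of 58.3 and 43.4 in MG132 replicate 1 against 65.9 and 67.3 in MG132 replicate 2. In vehicle replicate 2, the first summit of the pair on chromosome 1 and of the first pair on chromosome 4 was the stronger or the only one called, as in MG132 replicate 2. The chromosome 17 pair went the other way, with scores of 23.5 and 7.40 in vehicle replicate 2, the order of MG132 replicate 1.

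**Figure D4:**
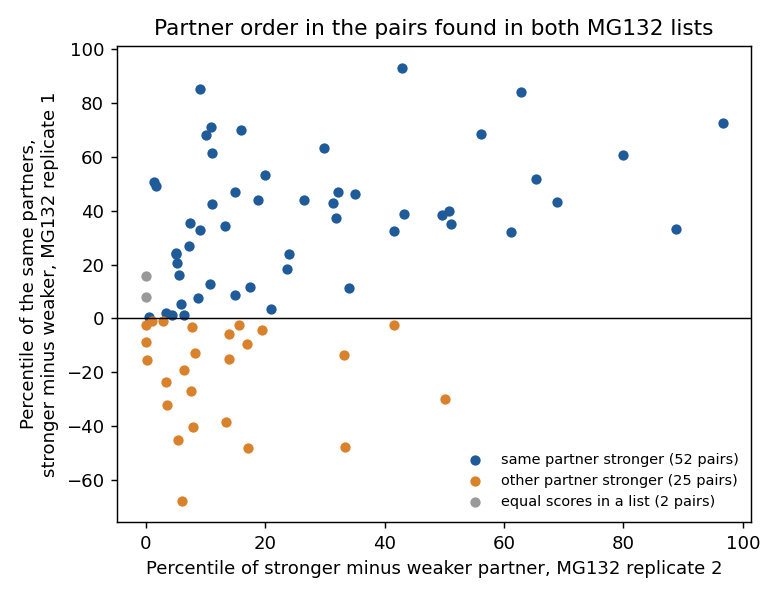
Difference in score percentile between the partners of the 79 pairs found in both MG132 lists, with the stronger partner of MG132 replicate 2 taken first, in MG132 replicate 2 (x axis) and MG132 replicate 1 (y axis). Points above the line at 0 kept their order (52 pairs, blue), points below it changed (25 pairs, orange) and 2 pairs had equal scores in a list (grey). Most of the changed pairs lie at the left, where the partners differed little.

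Of the 364 closely spaced summits found in MG132 replicate 1, 186 (51.1%) matched a summit that was itself closely spaced in that list. Of the 2929 single summits found there, 18 (0.615%) did. Of all autosomal summits of MG132 replicate 1, 6.02% were closely spaced. The selection rule largely fixes this contrast, so it is no separate result. A single summit has no neighbour within 10 kb in MG132 replicate 2, where 87.0% of the replicate 1 summits were found. By groups, 270 of 375 (72.0%) had a member in MG132 replicate 1, 80 (21.3%) had every member there and 105 (28.0%) had none. Of all autosomal summits of the MG132 replicate 2 list, 51.4% were found there. A group has several members and so several chances of a match, and no expected share of groups was computed.

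The comparison with vehicle asked whether close spacing went with sites that were also called without MG132. In vehicle replicate 2, 116 of 793 closely spaced summits were found (14.6%, 95% interval 12.2 to 17.3), against 675 of 5610 single ones (12.03%, 11.2 to 12.9) and 12.4% of all. The difference was 2.60 points (0.14 to 5.35). In band 4, where most matches lay, it was 107 of 222 (48.2%) and 623 of 1372 (45.4%), against 45.8% of all, a difference of 2.79 points (-4.21 to 9.84). In bands 1, 2 and 3, 1 of 191, 2 of 211 and 6 of 169 closely spaced summits were found, against 0.463%, 0.947% and 2.36% of all summits of these bands. Weighted over the bands the difference was 1.08 points. In vehicle replicate 1, 4 closely spaced (0.504%) and 19 single summits (0.339%) were found, against 0.359% of all, too few to compare. The same 4 closely spaced summits were also in both other lists, and so were 18 single ones, against 0.344% of all.

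Few pairs were whole in the vehicle lists, and few summits of any kind were found there. In vehicle replicate 2 it was 12.4% of all autosomal summits of the MG132 replicate 2 list. How often 2 unrelated summits would both be found was not computed. Both partners were in vehicle replicate 2 in 8 of 341 pairs (2.35%, 1.02 to 4.57), the stronger alone in 75 (21.99%), the weaker alone in 3 and neither in 255 (74.8%). In all, 11 weaker partners (3.23%) were called there. From band 1 to band 4 these were 0 of 147, 0 of 108, 1 of 58 and 10 of 28. Of all summits of these bands, 0.463%, 0.947%, 2.36% and 45.8% were found. In vehicle replicate 1 the chromosome 8 pair was found whole, the stronger partner alone in 2 pairs and no partner in 338. Vehicle replicate 2 itself held 26 closely spaced summits, 3.18% of its autosomal ones. Of the 116 closely spaced summits of MG132 replicate 2 found there, 23 (19.8%) matched one of them. Of the 675 single summits found there, 1 (0.148%) did. As with MG132 replicate 1, the selection rule largely fixes this contrast, so it is no separate result.

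The strongest group with no member in a vehicle list was the pair on chromosome 5 at 143911668 and 143917434. Its scores were 2.74 and 112 in MG132 replicate 2 and 6.76 and 47.4 in MG132 replicate 1. On chromosome 11, the summit at 6196212 scored 100.4 and 53.5 in the same lists, and its partner at 6190143 scored 13.6 in replicate 2 and was not in replicate 1. The pair on chromosome 8 at 96675079 and 96684509 was more even, with scores of 42.8 and 69.6 in replicate 2 and 24.1 and 30.3 in replicate 1. A group of 3 on chromosome 4 had summits at 33547551, 33554280 and 33558931 with scores of 5.45, 96.3 and 31.5, of which the last 2 recurred in replicate 1 at 42.1 and 16.1. The fifth, on chromosome 13 at 46811581 and 46820812, had scores of 7.97 and 68.7, and only the second recurred.

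In all, 415 closely spaced summits (52.3%, 95% interval 48.8 to 55.9) were in no other list, against 2657 single ones (47.4%, 46.1 to 48.7) and 48.0% of all. A small set was shared by both replicate 2 libraries and missing from MG132 replicate 1. It held 14 of the 116 closely spaced summits found in vehicle replicate 2 (12.1%, 6.76 to 19.4) and 24 of the 675 single ones (3.56%, 2.29 to 5.24), against 4.80% of all, a difference of 8.51 points (3.48 to 15.8). In band 4 it was 7 of 107 (6.54%) and 11 of 623 (1.77%), against 18 of 730 (2.47%) of all. This comparison was not among those planned, it rests on few summits, and its interval covers counting error only. The 14 summits lay in 14 groups on 11 chromosomes, and 10 of these groups had no member in MG132 replicate 1. Of all 375 groups, 105 (28.0%) had none there. The 14 groups were taken for a member missing from that list, which raises their count, so it shows no trait of the set.

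The strongest members of this set were as follows. On chromosome 5, the summit at 123589215 scored 56.3 in MG132 replicate 2 (rank 414) and 20.4 in vehicle replicate 2 (rank 154 of 828), while the nearest summit of MG132 replicate 1 was 545414 bp away. On chromosome 13, the summit at 14705628 scored 45.4 and 6.08 in these lists, with a partner at 14707700 that scored 14.6 and was in no other list. On chromosome 3, the summit at 108060295 scored 38.8, and MG132 replicate 1 had a summit 2156 bp away. On chromosome 7, a group of 3 at 16991105, 16991554 and 17001004 with a best score of 33.8 had its best summit in vehicle replicate 2 and none in MG132 replicate 1. Groups missing from MG132 replicate 1 were not confined to this set. The pairs on chromosome 1 at 34021728 and 34024629, with scores of 42.4 and 10.7, and on chromosome 8 at 34757418 and 34763966, with scores of 3.13 and 35.1, were in no other list.

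In the 34 groups of 3 or more, 25 of the strongest summits were in score band 4. Their strongest summits had a median score of 33.8 and their other 77 summits one of 8.86, a gap that taking the best of several scores creates in part or in full. In MG132 replicate 1, 25 of the 34 strongest summits (73.5%) and 18 of the others (23.4%) were found. Of all autosomal summits 51.4% were found, from 17.5% in band 1 to 93.5% in band 4. The strongest summits were taken for their score, and how much of this gap goes with score was not tested. All members were found in 1 group, at least 2 were in 14 groups, 1 was in 14 and none in 6. The group with every member found was that of 3 on chromosome 9 from 118288374 to 118301062. In 19 of the 34 groups at least 1 member was found in vehicle replicate 2. There, 12.4% of all autosomal summits and 45.8% of those in band 4 were found, and no expected count of groups was computed.

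The group of 5 lay on chromosome 14 from 68652672 to 68669192, with scores of 2.31, 12.6, 15.6, 36.3 and 6.25 in order of position. The summits at 68660245 and 68662985 were found in MG132 replicate 1, with scores of 9.60 and 13.2, and none was found in vehicle. On chromosome 4 from 43010584 to 43025017, 4 summits scored 1.62, 112, 7.41 and 8.43. The second of these ranked 116 of 6576 in MG132 replicate 2 and 152 of 828 in vehicle replicate 2, but 2254 of 3894 in MG132 replicate 1. On chromosome 11, 4 summits from 4199497 to 4210652 scored 13.6, 14.7, 10.8 and 70.1, and the last alone recurred, in MG132 replicate 1 and in vehicle replicate 2. On chromosome 16, 4 summits from 22091409 to 22108347 scored 65.8, 5.05, 7.97 and 7.10, and the first alone recurred. On the other stretch of chromosome 11, from 75272401 to 75276542, all 4 scored from 13.6 to 41.4 and the middle pair recurred in MG132 replicate 1.

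**Figure D5:**
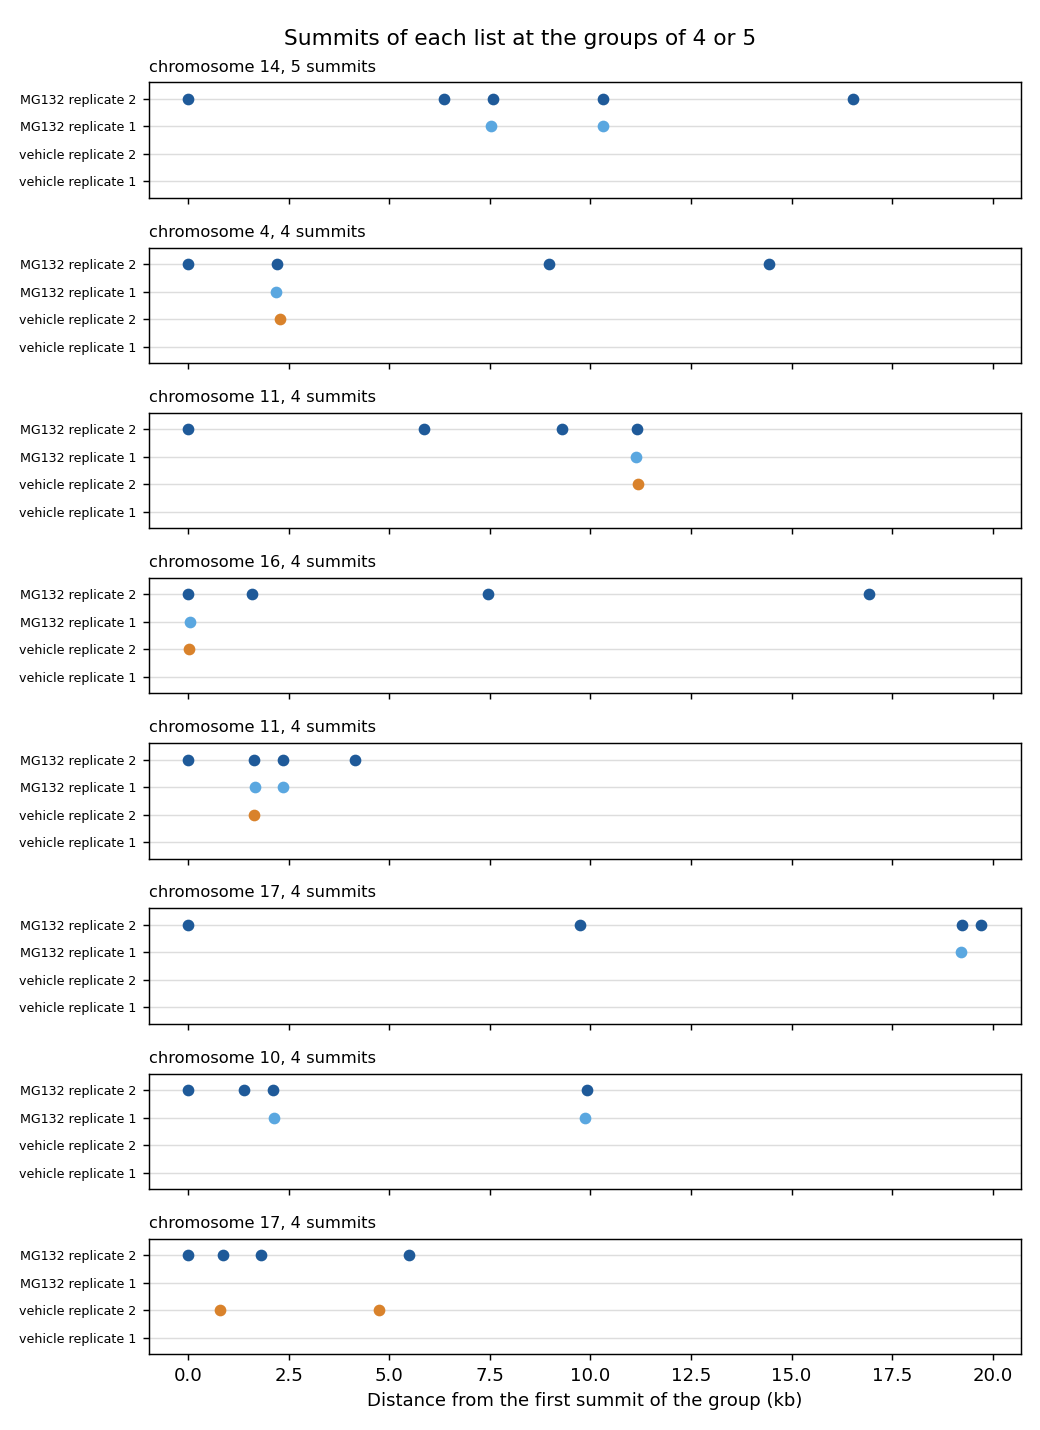
Summits of each of the 4 lists (rows within each panel) at the 8 groups of 4 or 5 closely spaced summits of MG132 replicate 2, by distance from the first summit of the group (x axis, kb). Each point is a called summit, within the group or up to 1 kb outside it. MG132 replicate 1 had 1 or 2 summits in 7 groups and none in the last, and vehicle replicate 1 had none in any.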

How the data were processed

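ChIP-seq summit lists of 4 libraries were used, 2 vehicle and 2 MG132, grouped and numbered by their titles. The deposited lists are BED files of 1-bp summits, 1 list per library. The score in column 5 was deposited as a −log10 value of p or q from peak calling. Per the submitters' processing notes, the tools were MACS2 2.1.4, Bowtie2 2.2.9 and bcl2fastq 2.16.0.10 and the build was mm9. Thresholds, duplicate handling and the use of input are not stated there. A deeper library can give more summits, hence more close ones, but read depth is unknown and this was not tested.

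Positions were made 1-based. Summits on chromosomes 1 to 19 within 10 kb of another of their list were called closely spaced and chained into groups. A summit was found in another list when that list had one within 200 bp. The 4 (or 10) score bands kept tied scores together. Shares have exact Clopper-Pearson and differences Newcombe 95% intervals, and no p-value was computed. Alternatives were other distances, score minimums, merging within 500 bp, mutual matches and left-out lists. The procedures were tested on simulated lists. The software was Python 3.11.15 with SciPy 1.17.1, pandas 2.3.3, NumPy 2.4.6 and matplotlib 3.10.9.

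The members, lists and rules were chosen with earlier results of these data known. The text names the groups with the highest stronger score, the highest weakest score, the most summits, the shortest and longest spacing, every member in all lists, no member in vehicle, no member in MG132 replicate 1, and a changed partner order. The members of the set shared by both replicate 2 libraries and the fully recurring group of 3 were named after their values were seen. Gene positions and motifs at the summits were not analysed for want of an mm9 reference.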

Additional observations from a re-analysis of the deposited data

How the results depend on the processing

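Of 40 alternatives for shares, 25 stayed inside the 95% interval of the value reported and 15 lay outside it. The weighted differences within score bands have no interval of their own. Of their 18 alternatives, 17 moved by less than 0.5 of the width of the interval of the unweighted difference. A share cannot change sign, and the differences within score bands kept theirs under every alternative tried. The alternatives with summits over 1 kb from their neighbour, with pairs only, and all those for differences within score bands were chosen after seeing the data. The share of closely spaced summits (12.4%) was 3.42%, 7.09%, 20.7% and 38.6% with limits of 2, 5, 20 and 50 kb. Score minimums of 5 and 10 gave 11.04% and 7.27%. It was 7.94% at the length of MG132 replicate 1, and 6.02% without MG132 replicate 2, that is, in replicate 1. Their recurrence in MG132 replicate 1 (45.9%) was 40.6% with a limit of 2 kb, 51.5% with scores of at least 10 in both lists and 64.8% with only the strongest member of each group. It was below that of single summits in 11 of 12 alternatives. The exception was the strongest member of each group, a choice that raises the score. With scores of at least 10 the difference was -0.44 points, but -5.53 points within 4 score bands. The difference within 4 bands (-7.15 points) was -12.6 with a limit of 2 kb and -4.24 with matches within 1000 bp. Recurrence in vehicle replicate 2 (14.6%) was 12.2% with matches within 50 bp and 26.1% with the strongest member only. The share found in either vehicle list (14.6%) was 14.6% without vehicle replicate 1 and 0.504% without vehicle replicate 2. Whole pairs in MG132 replicate 1 (23.2%) came to 29.0% with matches within 1000 bp, where 1 summit can match both partners. No paired analysis was possible because the results come from no test between groups. Without MG132 replicate 1 there is no second MG132 list in which to look for the members. The planned motif and gene analyses were not run. Read depth is unknown, so an uncalled site may be occupied, and score bands of the replicate 2 list do not equalise depth between lists.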

Other observations

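One weak group is described here for its summits in vehicle replicate 2. It belonged to the 10 groups with a member found in that list and none found in MG132 replicate 1. On chromosome 17, from 39980131 to 39985615, MG132 replicate 2 had 4 weak summits with scores of 3.92, 2.74, 9.84 and 4.38, and the nearest summit of MG132 replicate 1 to the second of them was 968466 bp away. Vehicle replicate 2 had 2 summits on the same stretch, at 39980926 and 39984876, which scored 15.8 and 10.25 and ranked 209 and 376 of its 828. The first of these was 69 bp from an MG132 replicate 2 summit of rank 6457 of 6576. Ranks of lists of such different lengths show no change at a site. This group was chosen after its values were seen. Without an mm9 annotation, whether the stretch is repeated sequence was not examined, so its summits may not be separate binding sites.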
